A study of Mus musculus with 44 samples.

Results

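The cadherins and nonclustered protocadherins were examined as a group of 35 genes in 44 libraries of mouse habenular and interpeduncular RNA. The group was chosen by symbol: every Cdh or Pcdh symbol followed by a number was taken if all count tables held it, and the clustered Pcdha, Pcdhb and Pcdhg genes were left out. It holds 23 Cdh and 12 Pcdh genes of the 22682 symbols that all tables share. By subfamily it has 5 type I and 13 type II classical cadherins, 5 other cadherins, 4 delta-1 and 5 delta-2 protocadherins, and 3 other protocadherins. No measured value entered the choice.

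The study used translating ribosome affinity purification (TRAP), in which an EGFP-tagged ribosomal protein L10a is made in one neuron class and its ribosome-bound mRNA is pulled down with anti-GFP beads from microdissected tissue. The pulldown (IP) was set against the whole-tissue RNA of the same dissection (input). Adult mice over 8 weeks old were used on a B6J.Cg background, and each library came from a pool of 3 to 9 mice. Medial habenula (MHb) neurons came from the single-transgenic ChAT line (DW167), in which the Chat BAC drives the tag, and 3 interpeduncular nucleus (IPN) populations came from the Chrna5-Cre (SN83), Amigo1-Cre (NP231) and Epyc-Cre (KR363) BAC lines, each crossed to the Eef1a1-LSL.EGFPL10 reporter, so that the tag marks each cell in which that Cre has acted. The Chrna5 line had 4 inputs and 3 IPs, all from untreated (baseline) mice. Input baseline 4 and IP baseline 4 of that line were labelled as pools of 6 males. The Amigo1 line had 4 inputs (3 baseline, 1 after a saline pump for 10 days) and 6 IPs (2 baseline, 1 saline pump, and 3 after 6 weeks of drinking water with 500 mg/L nicotine tartrate and 0.2% saccharin). The Epyc line had 4 inputs (3 baseline, 1 saline pump for 11 days) and 7 IPs (4 baseline, 1 saline pump for 10 days, and 2 after a pump delivering 24 mg/kg/d nicotine for 10 or 11 days). The ChAT line had 4 inputs, of which 2 were baseline and 2 came from mice on 0.2% saccharin water for 6 weeks that were injected with saline 3 hours before dissection. Its 12 IPs were 4 baseline, 2 saccharin water, 2 saccharin water with saline injection, 1 saline pump for 14 days, 2 nicotine water, and 1 nicotine water with saline injection. The ChAT baseline inputs are the left and the right MHb, each pooled from 9 males; the labels do not say whether these are the same mice, so both inputs may not be independent, and the titles of the ChAT baseline IPs also carry the word saline. The labels give 10 ug of RNA per MHb library and 500 pg per IPN library, so region and RNA amount cannot be told apart.

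Classical cadherins are single-pass membrane proteins that bind cadherins on neighbouring cells in the presence of calcium and hold the actin cytoskeleton through catenins. Type I members such as N-cadherin (Cdh2) bind strongly to themselves, whereas type II members bind themselves and selected relatives, and their combinations mark nuclei, layers and synaptic partners in the developing brain. Delta protocadherins lack the catenin-binding tail, adhere more weakly, and act in axon growth, sorting and synapse number. Cholinergic MHb neurons send their axons through the fasciculus retroflexus to the IPN, so the ChAT line and the 3 IPN lines sample both sides of one projection.

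Libraries held 7908401 to 70481509 reads counted in genes, of which 71.6% to 98.3% fell in the shared symbols, and levels are given as CPM, counts in those symbols scaled to a common library size with edgeR TMM factors. A level of 3 counts corresponded to 0.0495 to 0.436 CPM in single libraries. Markers of the labelled neurons were present: 8 MHb neuron genes summed to 553 to 659 CPM in ChAT inputs and to 4896 to 6521 CPM in ChAT IPs without nicotine. The 4 IPN neuron genes (Sst, Nos1, Pax7, Otp) summed to 706 to 910 CPM in Chrna5 inputs and 4916 to 5425 CPM in Chrna5 IPs, and to 540 to 643 and 5343 to 6060 CPM for Amigo1. In the Epyc line those sums were close, at 441 to 1119 CPM in inputs and 800 to 1033 CPM in IPs. Gene by gene, all 4 were higher in Chrna5 IPs, whereas 3 were higher and 1 lower in Amigo1 IPs. Of the same 4, 1 was higher and 2 were lower in Epyc IPs. Astrocyte markers summed to 2146 to 3424 CPM in IPN inputs and 474 to 868 CPM in IPN IPs without nicotine, and all 8 astrocyte and all 8 oligodendrocyte genes were lower in the IP in each of the 4 lines. Dopamine and serotonin neuron markers summed to 1531 to 2091 CPM in IPN inputs and 122 to 780 CPM in those IPs. The part of these cell types in the differences between IP and input was not tested, and fewer cells of a type cannot be told apart from less RNA per cell. Amigo1 nicotine IPs stood apart from all other libraries: 9195 to 9569 genes reached 1 CPM, against 12019 or more elsewhere, and replicates correlated at r of 0.790 to 0.811 across genes.

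Of the 35 genes, 29 had a median of at least 1 CPM in MHb inputs and 29 in IPN inputs, and 25 and 26 did so in the ChAT and IPN IPs. E-cadherin (Cdh1), Cdh16, Cdh17, Cdh26 and Pcdh12 had medians under 1 CPM in both regions and both fractions. Cdh1 is the epithelial cadherin, Cdh16 and Cdh17 are known from kidney and intestine, and Pcdh12 is known from endothelium. Counts were too low for a test of Cdh1, Cdh16 and Pcdh12 in any comparison and of Cdh3, Cdh17, Cdh19 or Cdh26 in some, so each count of tested genes below covers 29 to 32 of the 35. Per kilobase of transcript, the delta-1 protocadherin Pcdh9 had the highest median level in each line and fraction without nicotine, at 25.1 to 40.8 CPM per kb. The gene behind it differed between populations. In ChAT IPs from one gene list Cdh8 followed at 23.4 CPM per kb, ahead of Pcdh1 at 11.2 and Cdh3 at 8.79 CPM per kb. In Chrna5 IPs Pcdh10 was second at 16.2 CPM per kb, in Amigo1 IPs Cdh20 at 14.6, and in Epyc IPs Cdh8 at 20.4 CPM per kb.

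**Figure D1:**
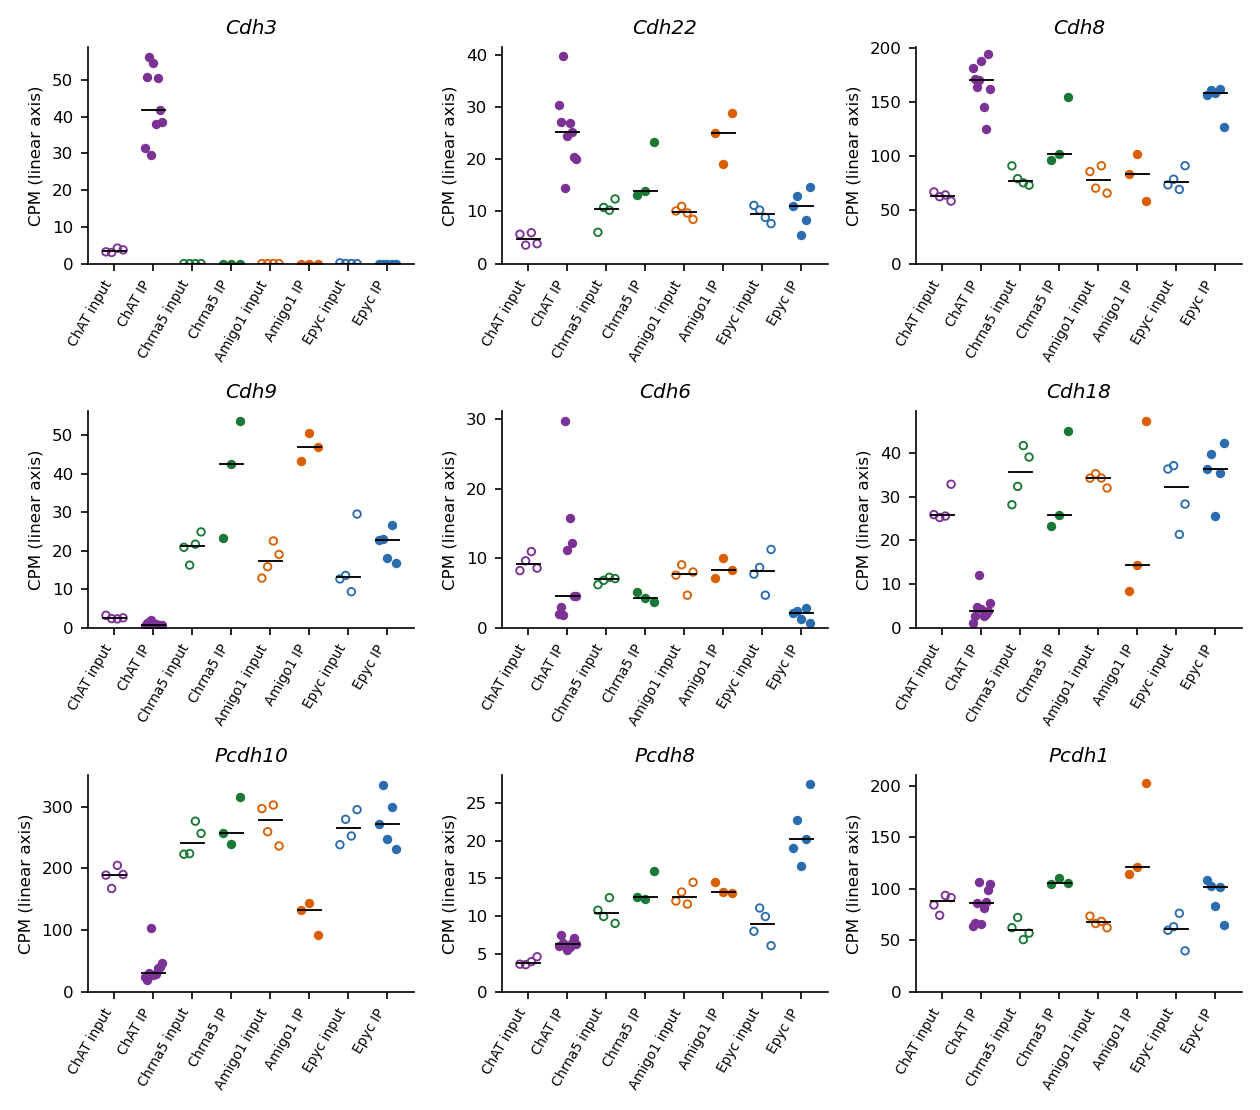
Levels of 9 cadherins and protocadherins in CPM (linear axis) in each library without nicotine, by line and fraction; open circles are inputs, filled circles are IPs and lines are group medians. Cdh3 was at 29.5 to 56.1 CPM in ChAT IPs and at 0 in all IPN IPs, while Cdh9 was low in the MHb and present in each IPN line.

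The comparison of ChAT IPs with MHb inputs asked which adhesion genes the ribosome-bound RNA of cholinergic MHb neurons holds more or less of than the surrounding tissue. The 3 IPs tested were saccharin water IPs 1 and 2 and saccharin-injection IP 2, so all their mice had saccharin. Of the 4 inputs 2 were baseline, so treatment is partly mixed with fraction. Few members were higher in these neurons and many were lower. Of 31 genes tested, 24 passed (edgeR quasi-likelihood test, p-values adjusted for every tested gene by the Benjamini-Hochberg method, adjusted p under 0.05): 5 were higher and 19 lower, with a median log2 difference of -1.22. Of all genes tested 51.1% passed, 23.9% higher and 27.2% lower, and their median was -0.02. By subfamily, 8 of the 13 type II cadherins and 4 of the 5 delta-2 protocadherins were lower.

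Cdh3, the type I P-cadherin, had the largest rise. It was measured at 3.02, 3.20, 3.74 and 4.22 CPM in the 4 inputs, and the 9 ChAT IPs without nicotine ran from 29.5 through a median of 41.8 to 56.1 CPM. No IP overlapped an input, and over the 3 IPs that share a gene list with the inputs Cdh3 was 10.5-fold higher (log2 3.39 ± 0.19, SE, adjusted p = 1.16e-06). The type II cadherin Cdh22 was at 3.54 to 5.93 CPM in inputs and ran from 14.5 through 25.3 to 39.8 CPM in IPs, 4.95-fold higher (log2 2.31 ± 0.23, adjusted p = 3.22e-05). Cdh8, a type II cadherin that helps direct retinal bipolar cells to their layers, was at 57.9 to 66.4 CPM in inputs and 125 to 194 CPM in IPs, with a median of 170 CPM. It was 2.85-fold higher (log2 1.51 ± 0.12, adjusted p = 7.81e-06), and again no IP overlapped an input. Pcdh20 was 2.3-fold higher (log2 1.20 ± 0.17, adjusted p = 0.000274). The delta-2 protocadherin Pcdh8, an activity-induced gene also called arcadlin, was 1.65-fold higher (log2 0.73 ± 0.21, adjusted p = 0.0143). Its levels were low, at 3.56 to 4.61 CPM in inputs and 5.46 to 7.52 CPM in IPs.

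Among the 19 that were lower, the largest differences were in Cdh19 and Cdh18. Cdh19, a type II cadherin known from neural crest-derived glia, fell by 3.30 on the log2 scale (SE 0.66), and Cdh18 fell by 2.88 (SE 0.42). Cdh18 was at 25.2, 25.6, 25.9 and 32.8 CPM in inputs, and its IPs ran from 1.16 through 3.83 to 12.0 CPM. Pcdh10, a delta-2 protocadherin needed for growth of striatal axons, was at 167 to 205 CPM in inputs and 18.8 to 103 CPM in IPs, with a median of 29.5. It fell by 2.34 (SE 0.24, adjusted p = 3.42e-05). The tip-link protocadherin Pcdh15 fell by 2.12, Cdh9 by 2.08, R-cadherin (Cdh4) by 2.01, Pcdh11x by 1.92, Pcdh18 by 1.90, Cdh24 by 1.65 and Pcdh7 by 1.60. The rest of the lower genes were N-cadherin (Cdh2, by 1.27), Cdh6, Cdh7, Cdh11, Cdh12, Cdh13, Pcdh9, Pcdh17 and Pcdh19. The highest Pcdh10 value, 103 CPM, was in ChAT IP baseline 1, whose astrocyte sum was 1007 CPM against 148 to 439 CPM in the other IPs without nicotine. That library was not among the 3 IPs of the test.

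Leaving out 1 library ended the call for Cdh7 (saccharin water IP 2, adjusted p = 0.0648), Pcdh8 (baseline input 2, 0.0528, or saccharin water IP 1, 0.0664) and Pcdh9 (baseline input 1, 0.0562, or saccharin-injection input 1, 0.0526). With 4 libraries alone, the IP and input of each of 2 saccharin-injection pools, 18 genes passed, and Cdh7, Cdh9, Cdh24, Pcdh8, Pcdh9 and Pcdh20 missed the threshold (adjusted p 0.126, 0.0867, 0.146, 0.261, 0.0663 and 0.0531). With all 9 IPs of any gene list Cdh6 missed it (0.959).

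In the IPN, Chrna5 IPs were compared with Chrna5 inputs to see which adhesion genes mark the α5 nicotinic receptor neurons. Here gains and losses were balanced: 13 of 30 genes passed, 6 higher and 7 lower, with a median log2 difference of 0.07, against 33.0% of all genes (14.2% and 18.8%) and a median of 0.01. The 6 that were higher are type II cadherins (Cdh8, Cdh9, Cdh10) and protocadherins (Pcdh1, Pcdh7, Pcdh18). The largest losses were in genes known from glia and vessels.

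Cdh9, a type II cadherin that acts at hippocampal mossy fibre synapses, was at 16.2, 20.9, 21.7 and 24.9 CPM in inputs and 23.3, 42.6 and 53.7 CPM in IPs. One IP lay within the range of the inputs, and the log2 difference was 0.87 ± 0.26 (adjusted p = 0.0183). Pcdh1 was at 50.6, 56.9, 62.2 and 72.1 CPM in inputs and 105, 105 and 110 CPM in IPs, with no overlap (log2 0.76 ± 0.16, adjusted p = 0.00231). Cdh10 was at 38.3 to 53.4 CPM in inputs and 71.3, 72.5 and 101 CPM in IPs, also apart (log2 0.70 ± 0.18, adjusted p = 0.00935). Pcdh18, which binds the reelin adaptor Dab1, was higher by 0.53 (adjusted p = 0.0469), Cdh8 by 0.51 (0.0421) and Pcdh7 by 0.48 (0.0364).

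Cdh19 was at 4.40 to 7.4 CPM in inputs and 0, 0.0932 and 0.250 CPM in IPs. Pooled over the IPs it had 13 counts, and the ratio of input to IP was 38.5 (95% counting interval 22.5 to 72.4). Endothelial VE-cadherin (Cdh5) fell by 3.87 on the log2 scale (SE 0.88, adjusted p = 0.00419), and endothelial and mural markers summed to 101 to 150 CPM in these inputs and 5.59 to 8.86 CPM in the IPs. Pcdh15 fell by 1.65 and its hair-cell tip-link partner Cdh23 by 1.51. The 4 oligodendrocyte precursor markers, genes of a cell type in which Pcdh15 is also known, went from 100 to 142 CPM in inputs to 5.23 to 14.2 CPM in IPs. Cdh13 (the GPI-anchored T-cadherin), Cdh11 and Pcdh9 fell by 0.84, 0.60 and 0.56. The calls for Cdh8, Cdh9, Cdh10, Cdh11, Pcdh7 and Pcdh18 each ended when a single library was left out, Pcdh18 with any of the 7 (adjusted p 0.0506 to 0.138), Cdh8 with 4 (up to 0.256 without IP baseline 4) and Cdh9 with 3 (up to 0.0953 without IP baseline 4). Cdh10 was lost only without IP baseline 2 (0.0606), where Cdh11 reached 0.114, and Pcdh7 reached 0.106 without IP baseline 1. Over the 3 IP and input pairs that share a number, Cdh8 missed the threshold both without a block for the pair (0.106) and with one (0.0670). Pcdh18 missed it without the block (0.0940), and with the block Cdh2, Cdh7 and Cdh22 were higher by 0.39, 0.39 and 0.73 (0.0210, 0.0484 and 0.0419).

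In the Amigo1 line 11 of 29 genes passed, 4 higher and 7 lower, against 30.6% of all genes tested (13.9% higher and 16.8% lower). The median over the members was -0.25 and over all genes -0.03. The 4 higher genes were Cdh9, Cdh22, Pcdh1 and Cdh10. These IPs and inputs were counted on different gene lists, so list and fraction cannot be told apart, as in the Epyc line.

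Cdh9 was at 12.9, 15.8, 19.0 and 22.5 CPM in Amigo1 inputs and 43.4, 46.9 and 50.6 CPM in IPs without nicotine. The groups were apart, with a 2.63-fold difference (log2 1.40 ± 0.23, adjusted p = 0.00164). Cdh22 was at 8.48 to 11.0 CPM in inputs and 19.1, 25 and 28.9 CPM in IPs (log2 1.29 ± 0.25, adjusted p = 0.0041). Pcdh1 was at 62.2 to 73.4 CPM in inputs and 115, 121 and 203 CPM in IPs (log2 1.10 ± 0.21, adjusted p = 0.00392). The third Pcdh1 value was from the saline-pump pool, as was the highest Cdh10 value of 135 CPM beside 73.4 and 80.9 CPM at baseline (log2 0.90 ± 0.23, adjusted p = 0.0149).

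Lower in Amigo1 IPs were Cdh19 (by 4.38), Cdh13 (by 2.34), Pcdh15 (by 1.86), Pcdh10 (by 1.18), Cdh11 (by 1.06), Cdh7 and Pcdh17 (both by 0.65). Pcdh10 was at 236, 259, 297 and 303 CPM in inputs and 91.8, 132 and 144 CPM in IPs, with no overlap (adjusted p = 0.000813). Cdh13 went from 101 to 125 CPM in inputs to 12.7, 25.3 and 28.6 CPM in IPs. Single libraries ended the calls for Cdh7 (5 of 7 libraries, adjusted p up to 0.101 without input baseline 4), Pcdh15 (0.0514 without input baseline 2 and 0.0511 without input baseline 4) and Cdh10 (0.0513 without input baseline 1). Over the 3 pairs of IP and input that share a number, which leaves out input baseline 2, Cdh7 was at 0.0501 with and without a block for the pair.

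In the Epyc line 14 of 29 genes passed, 5 higher and 9 lower, against 36.1% of all genes (15.9% and 20.2%), and both medians were near 0 (0.01 for the members and -0.01 for all genes). Higher were Pcdh8, Cdh24, Cdh8, Cdh10 and Pcdh1. Pcdh8 was at 6.08, 7.99, 9.94 and 11.1 CPM in inputs and 16.6, 19.0, 20.1, 22.8 and 27.5 CPM in IPs without nicotine. The groups did not overlap (log2 1.23 ± 0.26, adjusted p = 0.00156). Cdh8 was at 68.7 to 90.7 CPM in inputs and 127, 156, 158, 161 and 162 CPM in IPs, again apart (log2 0.93 ± 0.14, adjusted p = 6.46e-05). Cdh24 was higher by 1.17 ± 0.38 (adjusted p = 0.0254), Cdh10 by 0.68 ± 0.17 (0.00577) and Pcdh1 by 0.58 ± 0.20 (0.0322).

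Cdh6, a type II cadherin that guides retinal axons to their targets, was lower here. It was at 4.67, 7.70, 8.67 and 11.3 CPM in Epyc inputs and 0.612, 1.22, 2.17, 2.45 and 2.84 CPM in IPs, a drop of 4.49-fold with no overlap (adjusted p = 0.00188). Cdh5, Cdh19, Pcdh15, Cdh13 and Cdh23 fell by 2.82, 2.35, 1.87, 1.85 and 1.83, and Pcdh9, Cdh11 and Pcdh17 by 0.73, 0.68 and 0.61. Leaving out 1 library ended the calls for Cdh11 (6 of 9 libraries, adjusted p up to 0.0919 without input baseline 2), Pcdh1 (6, up to 0.0752 without IP baseline 1), Cdh24 (4, up to 0.0585 without IP baseline 2) and Cdh5 (3, up to 0.105 without the saline-pump input). With only the 3 baseline IPs and 3 inputs that share a number, Cdh5 and Cdh11 missed the threshold (adjusted p = 0.211 and 0.182), while Cdh9 was higher by 0.98 ± 0.23 (0.00539) and Pcdh7 by 0.45 ± 0.14 (0.0257).

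**Figure D2:**
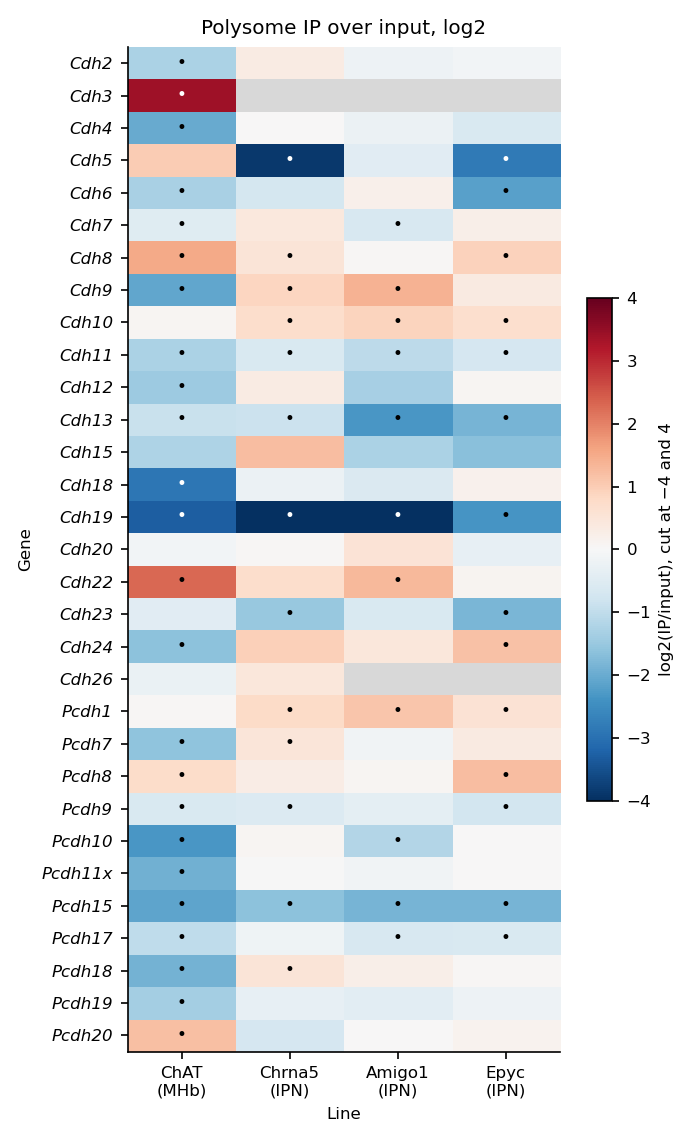
Log2 difference of IP over input for each member (rows) in the 4 lines (columns); colour is cut at -4 and 4, a dot marks adjusted p under 0.05 and grey marks genes that were not tested. Cdh3 was tested in the ChAT line alone and was higher by 3.39, and Cdh11, Cdh13, Cdh19 and Pcdh15 were lower in all 4 columns.

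Set side by side, the 4 lines had 4 genes that were lower in every IP (Cdh11, Cdh13, Cdh19 and Pcdh15) and none that was higher in every IP. Cdh10 and Pcdh1 were higher in all 3 IPN lines and did not pass in the ChAT line. Cdh9, Cdh24, Pcdh7 and Pcdh18 were lower in ChAT IPs and higher in at least 1 IPN line. Cdh8, Cdh22 and Pcdh8 were higher in ChAT IPs and in at least 1 IPN line. Cdh2, Cdh4, Cdh12, Cdh18, Pcdh11x and Pcdh19 were lower in ChAT IPs and passed in no IPN line. No gene was higher in one IPN line and lower in another, and Cdh15, Cdh20 and Cdh26 (the last tested in 2 lines) passed in no line. Cdh1, Cdh16, Cdh17 and Pcdh12 were not tested in these comparisons. Passing in one line and not in another is not a test of the difference between them. The share of all genes with each of these patterns was not counted, so the counts show nothing particular to the members.

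The direct test between both ends of the projection compared 3 Chrna5 IPs with the 3 ChAT IPs counted on the same gene list. The Chrna5 mice were untreated and these ChAT mice all had saccharin water, so line and treatment cannot be told apart. IPN neurons held more of most members: 23 of 30 genes passed, 20 higher in Chrna5 IPs and 3 higher in ChAT IPs, against 32.7% of all genes (16.7% and 16%). The median over the members was 1.27 and over all genes -0.02. All 5 delta-2 protocadherins (Pcdh8, Pcdh10, Pcdh17, Pcdh18 and Pcdh19) were higher in Chrna5 IPs.

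Cdh9 differed most in that direction. It was at 0.433, 0.554 and 0.793 CPM in the ChAT IPs and 23.3, 42.6 and 53.7 CPM in the Chrna5 IPs, 64.0-fold apart (log2 6.00 ± 0.41, adjusted p = 3.46e-06). Cdh24 was higher by 3.34, Cdh18 by 3.09, Pcdh7 by 3.05, Pcdh10 by 2.86, Pcdh18 by 2.82, Pcdh11x by 2.68, Cdh15 by 2.55, Cdh4 by 2.19 and Cdh23 by 1.81. Pcdh10 was at 23.7, 40.6 and 46.0 CPM in ChAT and 240, 257 and 315 CPM in Chrna5 IPs (adjusted p = 2.68e-05). The other 10 higher genes were Cdh2, Cdh7, Cdh10, Cdh11, Cdh13, Cdh20, Pcdh8, Pcdh15, Pcdh17 and Pcdh19, by 0.90 to 1.80.

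In the other direction, Cdh3 was at 31.3, 38.5 and 41.8 CPM in these ChAT IPs and had no count in any Chrna5 IP. Against a floor of 3 counts over the Chrna5 group it was at least 1004-fold higher in ChAT IPs. Over all libraries, 12 ChAT IPs averaged 43.8 CPM and all 16 IPN IPs were at 0 counts, at least 4658-fold apart by the same floor. Pcdh20 and Cdh8 were lower in Chrna5 IPs by 1.56 (adjusted p = 0.00568) and 0.61 (0.0397) on the log2 scale. The Cdh8 call ended without any of 5 libraries (adjusted p up to 0.171 without Chrna5 IP baseline 1), as did Cdh15 with 5 (up to 0.157 without Chrna5 IP baseline 4), Cdh23 with 4 (up to 0.103 without Chrna5 IP baseline 2), Pcdh15 with 3 (up to 0.0604 without Chrna5 IP baseline 4) and Pcdh8 with 1 (0.0525 without saccharin water IP 2).

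Cdh9 and Cdh3 were also among the genes furthest apart in the whole-tissue inputs. Between 12 IPN and 4 MHb inputs, 18 of 32 genes passed, 15 higher in the IPN and 3 higher in the MHb, against 32.8% of all genes (16.5% and 16.3%). The median log2 difference was 0.32 for the members and 0.02 for all genes. Of the MHb inputs 2 came from mice with saccharin water and a saline injection, which no IPN input had. Treatment is thus partly mixed with region. The 2 baseline MHb inputs, left and right, may not be independent. Cdh9 ran from 9.33 through 17.6 to 29.5 CPM in the IPN and from 2.26 to 3.20 CPM in the MHb, without overlap (log2 2.77 ± 0.28, adjusted p = 1.58e-08). Cdh23 was at 11.6 to 18.2 CPM in the IPN, with a median of 13.9, and 1.39 to 2.55 CPM in the MHb (log2 2.76 ± 0.21, adjusted p = 1.62e-10). Cdh5 was higher in the IPN by 2.27, Cdh20 by 1.44, Pcdh8 by 1.38, Pcdh15 by 0.99, Cdh22 by 0.98, Cdh24 by 0.96 and Pcdh7 by 0.89, and Cdh11, Cdh13, Pcdh10, Pcdh11x and Pcdh19 by 0.35 to 0.71. Cdh17 also passed, but with 1 count in the MHb inputs and a mean of 0.364 CPM in the IPN, a ratio of 69.8 (12.5 to 2757).

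Higher in the MHb were Cdh3, with 9 counts in all IPN inputs together and a ratio of 151 (79.8 to 331), the type II cadherin Cdh12 and Pcdh1. Cdh12 was at 43.4 to 50.7 CPM in the MHb and 11.2 to 21.6 CPM in the IPN, with no overlap (log2 -1.58 ± 0.15, adjusted p = 1.03e-08). Cdh12 was also lower in ChAT IPs than in MHb inputs. Pcdh1 fell by 0.52 in the IPN relative to the MHb. Calls for Cdh17, Cdh24 and Pcdh19 each ended without ChAT input baseline 1 (adjusted p = 0.0624, 0.0664 and 0.154), and endothelial and mural markers were at 67.0 to 182 CPM in IPN and 42.9 to 75.3 CPM in MHb inputs. Their part in Cdh5 was not tested. Other cell types also differed between the inputs: 7 of 8 astrocyte, 7 of 8 oligodendrocyte, 4 of 4 oligodendrocyte precursor and 4 of 4 meningeal markers were higher in the IPN. Oligodendrocyte markers summed to 4873 to 8885 CPM in the IPN and 2475 to 2849 CPM in the MHb, and precursor markers to 100 to 142 and 45.4 to 66.5 CPM. Their part in the 15 genes higher in the IPN was not tested.

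The IPs of the Amigo1 and Epyc lines were then compared as 2 subtypes of IPN neuron. In the fit of the 8 IPs without nicotine, the genes that passed were Cdh6, Cdh9 and Cdh22, higher in Amigo1, and Cdh8 and Pcdh10, higher in Epyc. They passed only in fits that left out or down-weighted the Amigo1 nicotine IPs. The 250 bases before the RefSeq start site of these 5 genes are shown because all 5 passed in the fit of 8 IPs. RefSeq (build GRCm38.p6) gave such a window for 22 of the 35 members. The sequences read 5′ to 3′ on the gene's strand, and capitals mark the longest run that any windows of the 5 genes shared.

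Cdh9, chr15:16728665-16728914, plus strand: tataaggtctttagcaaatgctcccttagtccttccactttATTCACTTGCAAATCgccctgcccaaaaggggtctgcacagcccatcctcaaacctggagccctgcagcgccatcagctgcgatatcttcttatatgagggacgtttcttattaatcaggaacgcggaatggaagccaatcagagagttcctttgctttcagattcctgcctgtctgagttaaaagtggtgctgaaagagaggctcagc
Cdh6, chr15:13173676-13173925, minus strand: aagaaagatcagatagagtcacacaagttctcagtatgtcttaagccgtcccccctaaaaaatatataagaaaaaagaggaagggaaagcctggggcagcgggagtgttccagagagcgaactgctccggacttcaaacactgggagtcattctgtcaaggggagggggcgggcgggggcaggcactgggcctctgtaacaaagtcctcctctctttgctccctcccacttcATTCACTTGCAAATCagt
Cdh22, chr2:165234738-165234987, minus strand: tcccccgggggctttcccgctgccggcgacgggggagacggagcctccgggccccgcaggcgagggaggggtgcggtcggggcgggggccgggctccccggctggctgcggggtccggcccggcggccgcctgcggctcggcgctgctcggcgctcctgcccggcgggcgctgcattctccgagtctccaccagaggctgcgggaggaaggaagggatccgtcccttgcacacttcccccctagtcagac
Cdh8, chr8:99416472-99416721, minus strand: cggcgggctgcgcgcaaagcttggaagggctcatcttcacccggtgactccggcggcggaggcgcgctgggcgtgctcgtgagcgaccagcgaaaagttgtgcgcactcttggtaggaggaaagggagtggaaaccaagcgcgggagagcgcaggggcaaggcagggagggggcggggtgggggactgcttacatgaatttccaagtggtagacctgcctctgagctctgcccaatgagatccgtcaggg
Pcdh10, chr3:45378148-45378397, plus strand: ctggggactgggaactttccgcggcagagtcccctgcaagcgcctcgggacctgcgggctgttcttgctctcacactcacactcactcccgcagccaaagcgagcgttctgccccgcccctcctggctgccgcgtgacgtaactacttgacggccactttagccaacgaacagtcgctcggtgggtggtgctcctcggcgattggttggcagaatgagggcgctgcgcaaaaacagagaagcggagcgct

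Cdh6 and Cdh9, neighbours in a group of type II cadherin genes on chromosome 15, shared a run of 15 bases, ATTCACTTGCAAATC, on the gene's strand. It lies 18 bases before the start of Cdh6, and 209 bases before the RefSeq start of Cdh9 but 50 bases before the GENCODE start of that gene. The run was found on either strand in 2 of 27025 gene windows (0.007%), those of Cdh6 and Cdh9. Its inner 8 letters, TTGCAAAT, were in 180 windows (0.666%), and among the 22 members in the same 2. Over the 231 pairs of member windows the longest shared run had a median of 9 bases, and 15 bases was the longest, reached also by a simple repeat in Cdh26 and Pcdh7. The run was picked after the windows were read, and a match of letters is not a binding site. CpG pairs numbered 30 in the Cdh22 window, 22 in Pcdh10, 20 in Cdh8 and 6 each in Cdh6 and Cdh9. The median was 9 over the members with a window and 6 over all genes.

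Cdh6 was at 7.18, 8.29 and 9.98 CPM in Amigo1 IPs without nicotine and 0.612, 1.22, 2.17, 2.45 and 2.84 CPM in Epyc IPs. Cdh9 was at 43.4, 46.9 and 50.6 CPM in Amigo1 and 16.7, 18, 22.8, 23.1 and 26.8 CPM in Epyc IPs. Cdh22 was at 19.1, 25 and 28.9 CPM in Amigo1 and 5.44, 8.44, 11.0, 12.9 and 14.6 CPM in Epyc IPs. In all 3 genes each Amigo1 IP lay above each Epyc IP. Cdh8 was at 57.9, 82.8 and 101 CPM in Amigo1 and 127 to 162 CPM in Epyc IPs, and Pcdh10 at 91.8, 132 and 144 CPM in Amigo1 and 231, 248, 273, 299 and 335 CPM in Epyc IPs. In both genes each Epyc IP lay above each Amigo1 IP. Among the 30 genes tested, 6 had all Amigo1 IPs above all Epyc IPs and 5 the reverse, and 15.8% of all genes were apart in either direction.

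In the fit of all 13 IPs of both lines, 0 of 30 members passed (edgeR quasi-likelihood test, 0.581% of all genes), and 1 member, Pcdh10, had an unadjusted p under 0.05 (log2 -1.18 ± 0.39, adjusted p = 0.435). Cdh8 and Cdh9 had log2 differences of -0.92 ± 0.47 (adjusted p = 0.978) and 1.13 ± 0.67 in that fit, and DESeq2 also gave 0. In the fit of the 8 IPs without nicotine, 5 of 29 passed, against 8.05% of all genes. Cdh6 was 4.6-fold higher in Amigo1 (log2 2.20 ± 0.56, adjusted p = 0.0264), Cdh22 2.33-fold (1.22 ± 0.34, 0.0411) and Cdh9 2.20-fold (1.14 ± 0.22, 0.00597). Pcdh10 was 2.25-fold higher in Epyc (log2 -1.17 ± 0.18, adjusted p = 0.00104) and Cdh8 1.88-fold (-0.91 ± 0.19, 0.00786). Log2 differences were close in both fits, while the standard errors were smaller in the second.

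When the IP-to-input difference was compared between the lines, which sets each IP against inputs of its own line, 3 of 30 passed, against 4.07% of all genes: Cdh6 (2.33 ± 0.61, adjusted p = 0.0304), Cdh8 (-0.93 ± 0.24, 0.0282) and Pcdh10 (-1.22 ± 0.22, 0.00121). Cdh9 (1.02, adjusted p = 0.205) and Cdh22 (1.16, 0.141) did not pass there. With Chrna5 IPs in the fit, which were counted on another gene list, 8 of 29 passed, adding Cdh12, Cdh20 and Pcdh1 (10.1% of all genes). With limma voom quality weights 8 of 30 passed, adding Cdh5, Cdh12 and Cdh18 (11.4%). Cdh6, Cdh8 and Pcdh10 passed in all 4 of these fits. The 4 fits rest on the same Amigo1 and Epyc IPs without nicotine, so they are not independent of each other. The fit of 8 IPs was not repeated with single libraries left out. Inputs of both lines were alike in what the test could show: 0 of 29 members and 0.0% of all genes passed (edgeR and DESeq2), with 2 members and 532 genes at an unadjusted p under 0.05, and the Cdh6 difference was -0.16 ± 0.31.

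**Figure D3:**
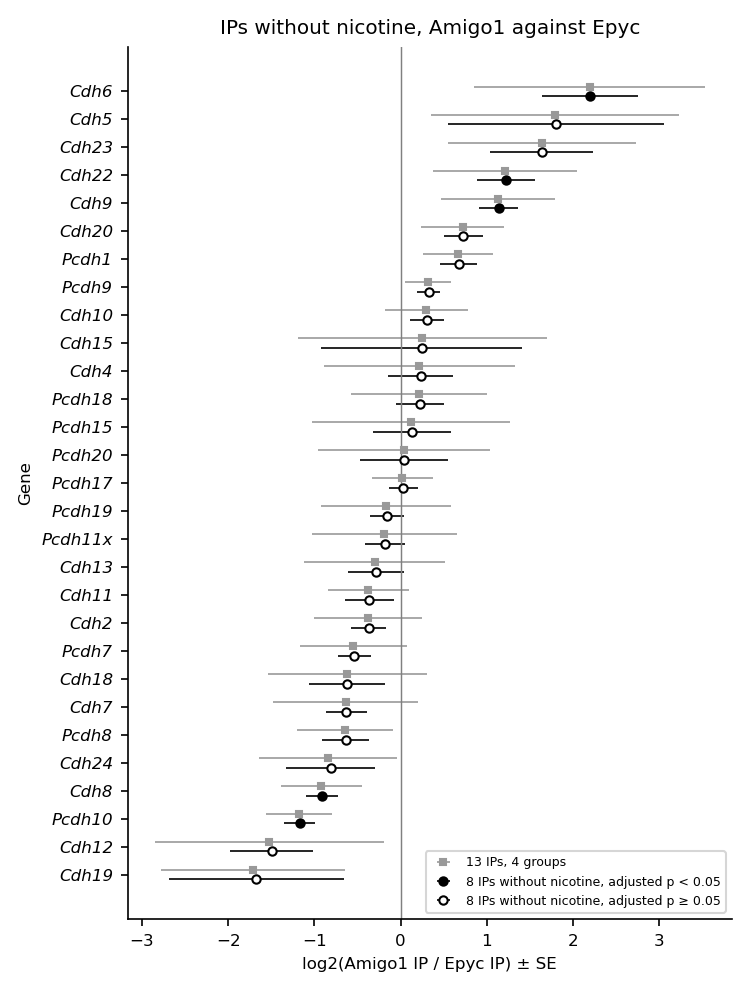
Log2 difference of Amigo1 over Epyc IPs without nicotine for each member, with its standard error; grey squares are the fit of all 13 IPs and circles the fit of 8 IPs without nicotine, filled where adjusted p was under 0.05. The filled circles are Cdh6 (2.20), Cdh22 (1.22), Cdh9 (1.14), Cdh8 (-0.91) and Pcdh10 (-1.17), and no square passed.

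Chrna5 IPs lay between the other IPN lines for some of these genes and with one of them for others. For Cdh6 they held 3.73, 4.24 and 5.10 CPM, above every Epyc and below every Amigo1 IP. For Pcdh10 they held 240, 257 and 315 CPM, within the range of Epyc IPs and above every Amigo1 IP. For Cdh22 they held 13.2, 13.8 and 23.4 CPM, overlapping both lines. These Chrna5 IPs were counted on another gene list than the Amigo1 and Epyc IPs. Line and gene list therefore cannot be told apart where Chrna5 IPs are set beside the others.

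Nicotine was given in drinking water to Amigo1 and ChAT mice and by pump to Epyc mice, so dose and route differ and the values are set side by side. In Epyc IPs 0 of 30 members passed, as did 0.0% of all genes (edgeR; DESeq2 also gave 0), and 0 members had an unadjusted p under 0.05, against 178 of all genes. Pcdh8 was at 38.2 and 39.1 CPM in both nicotine IPs and 16.6 to 27.5 CPM in the 5 without, apart, but with a log2 difference of 0.86 ± 0.60 that did not pass. Cdh8 was at 124 and 167 CPM with nicotine, against 127 to 162 CPM without, and Pcdh10 at 237 and 261 against 231 to 335 CPM, so both overlapped.

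In Amigo1 IPs 5 of 30 members passed, 1 higher and 4 lower, against 19.1% of all genes (6.17% higher and 12.9% lower). The nicotine water also held saccharin, which the baseline and saline-pump controls did not get. Nicotine and saccharin cannot be told apart in this line. The 3 nicotine IPs disagreed among themselves: Pcdh15 was at 5.03, 628 and 4.50 CPM, Cdh2 at 144, 547 and 25.6 CPM, and Cdh9 at 124, 206 and 7.19 CPM. Their summed IPN neuron markers were 15692 to 36550 CPM, against 5343 to 6060 CPM without nicotine, and 25 members had any count in each of them. Gene by gene, 1 of the 4 markers was higher with nicotine and 0 were lower, with a median log2 difference of 0.08. Cdh20, a type II cadherin, was at 97.3, 111 and 454 CPM with nicotine and 43.1, 58.4 and 74.5 CPM without, apart (log2 2.01 ± 0.57, adjusted p = 0.0264). Cdh10 was at 5.88, 14.6 and 36.5 CPM with and 73.4, 80.9 and 135 CPM without, also apart (log2 -2.25 ± 0.57, adjusted p = 0.0161). Cdh7 was at 0.201, 0.659 and 8.38 CPM with and 26.7, 36.8 and 37.0 CPM without (log2 -3.34 ± 1.01, adjusted p = 0.0351). Leaving out 1 of the 13 IPs ended the call for Cdh5 with 11 of them (adjusted p up to 0.102), for Cdh7 with 10 (up to 0.0739), for Cdh20 with 4 (up to 0.0987, and a log2 difference of 0.92, without Amigo1 nicotine IP 1) and for Cdh10 with 1 (0.0567, without the saline-pump IP).

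Cdh24 had 1 count in the 3 Amigo1 nicotine IPs and averaged 8.58 CPM without nicotine, a ratio of 386 (69.3 to 15250). Cdh5 had 0 counts with nicotine and was at least 23.0-fold lower by a floor of 3 counts. Endothelial and mural markers summed to 0 to 3.72 CPM in these IPs, with 6 of 8 genes at 0, against 13 to 23.7 CPM without nicotine, and 4 of the 6 tested were lower. Astrocyte markers summed to 865 to 2595 CPM with nicotine and 474 to 723 CPM without, and 3 of 8 were higher. The part of these cell types in the nicotine differences was not tested. The difference of the nicotine differences, Amigo1 minus Epyc, passed for 1 of 30 members, Cdh24, against 7.24% of all genes. Amigo1 and Epyc nicotine IPs differed in 4 of 30 members, against 16.4% of all genes (5.16% higher in Amigo1 and 11.2% lower): Cdh20 (2.94 ± 0.69) and Cdh22 (3.97 ± 1.28) were higher in Amigo1, and Cdh7 (-4.10 ± 1.09) and Cdh24 (ratio 891, 160 to 35206) lower. Cdh22 values there were 4.07, 49.6 and 291 CPM, and its call ended without any of 11 of the 13 IPs (adjusted p up to 0.238 without Epyc nicotine IP 1, and log2 1.85 without Amigo1 nicotine IP 3). The Cdh7 call ended without either Epyc nicotine IP (0.0512 and 0.103) and the Cdh20 call without Epyc nicotine IP 1 (0.129). With quality weights, which were 0.113 to 0.152 for the Amigo1 nicotine IPs and 0.596 to 3.93 for the others, 0 members passed for nicotine in Amigo1 (1.05% of all genes), as in a fit of Amigo1 IPs alone, and 1 passed between the nicotine IPs of both lines (1.95% of all genes). Leaving out 1 of the 13 IPs moved the count of 5 between 2 and 14.

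**Figure D4:**
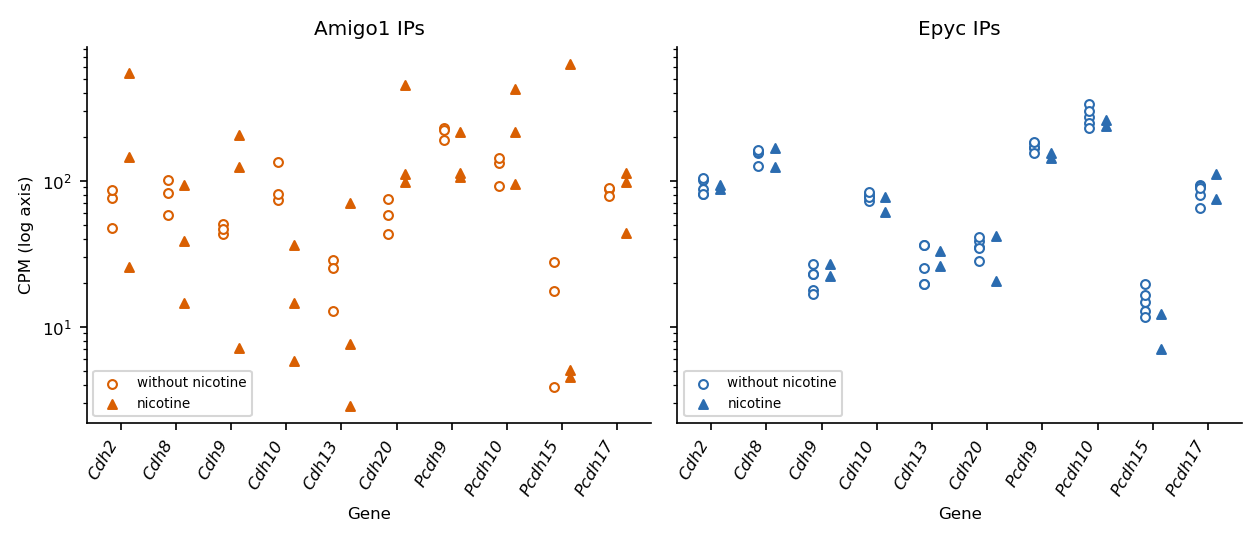
Levels of 10 members in CPM (log axis) in each Amigo1 and Epyc IP without nicotine (circles) and with nicotine (triangles). The 3 Amigo1 triangles spread widely, with Pcdh15 at 4.50 to 628 CPM, whereas the 2 Epyc triangles of that gene were at 7.07 and 12.2 CPM.

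In ChAT IPs, 3 with nicotine water against 2 without from the same gene list, 0 of 31 members passed, as did 0.0% of all genes (edgeR; DESeq2 also gave 0), and 2 members and 1135 genes had an unadjusted p under 0.05. The 2 IPs without nicotine were saline-pump IP 1, whose mice had no saccharin, and saccharin-injection IP 1. Saccharin, pump and injection thus also differed between the groups, and nicotine cannot be told apart from them. The smallest p-values were for Cdh12 (1.5 ± 0.59), Cdh11 (1.66 ± 0.65) and Cdh6 (1.39 ± 0.62), all with adjusted p = 0.525. The 3 nicotine IPs differed in glial content: astrocyte markers summed to 128, 354 and 1064 CPM, and Cdh11 was at 10.6, 18.8 and 43.5 CPM in the same order. Without the nicotine IP with saline injection 10 members passed, against 10.6% of all genes in that fit, 9 higher and 1 lower with nicotine (Cdh22, -0.84), among them Pcdh7 (3.11, adjusted p = 0.0209) and Pcdh15 (2.51, 0.0257), and the part of glial RNA in that was not tested. Cdh3 was at 33.5, 48.1 and 53.2 CPM with nicotine and 50.8 and 56.1 CPM without (log2 -0.24 ± 0.21, adjusted p = 0.626).

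Catenins and other cytoplasmic partners of cadherins gave 22 measured genes, and 4 were higher and 7 lower in Chrna5 IPs, 2 and 9 in ChAT IPs, 3 and 6 in Amigo1 IPs, and 4 and 4 in Epyc IPs, each against the line's inputs. The shares of all genes that were higher and lower were 14.2% and 18.8% for Chrna5, 23.9% and 27.2% for ChAT, 13.9% and 16.8% for Amigo1, and 15.9% and 20.2% for Epyc. Ctnnal1, an alpha-catenin relative, was lower in all 4 lines, by 2.15 to 2.81 on the log2 scale. p120-catenin (Ctnnd1), which holds classical cadherins at the membrane, was higher by 2.51 ± 0.24 in Amigo1 and 1.90 ± 0.21 in Epyc IPs. Alpha-T-catenin (Ctnna3) was lower in Chrna5, ChAT and Amigo1 IPs (log2 -3.31, -2.26 and -2.31). In the fit of 8 IPs, 1 of 22 differed between the subtypes, where 8.05% of all genes did: alpha-N-catenin (Ctnna2), which links neuronal cadherins to actin, was higher in Amigo1 by 1.11 ± 0.16 (adjusted p = 0.000579). Between Chrna5 and ChAT IPs, 4 were higher and 2 lower in Chrna5 (16.7% and 16% of all genes), with Ctnnbip1, an inhibitor of beta-catenin signalling, lower (log2 -3.18 ± 0.24, adjusted p = 7.42e-06).

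Of the other cadherin superfamily genes, 6 of 16 were higher and 3 lower in Chrna5 IPs, 5 and 3 of 16 in ChAT, 5 and 4 of 16 in Amigo1, and 6 and 2 of 15 in Epyc IPs, to be read beside the same shares of all genes. Cdhr1, the photoreceptor cadherin, was higher in all 4 lines, by 2.06 to 2.52. The desmosomal Dsc2 was lower in Chrna5, ChAT and Amigo1 IPs (log2 -3.55, -5.47 and -4.15). Between Chrna5 and ChAT IPs 10 of 15 were higher and 2 lower in Chrna5 (16.7% and 16% of all genes). The planar-polarity cadherin Celsr1 was higher there by 3.34 ± 0.49 and Fat3 lower (-3.06 ± 0.20). Fat3, a giant cadherin known from retinal amacrine dendrites, fell by 1.71 in Epyc IPs against inputs. In the fit of 8 IPs it was the 1 gene of 14 that differed, where 8.05% of all genes did. It was higher in Amigo1 by 0.83 ± 0.18 (adjusted p = 0.0113). In the inputs, the receptor Ret, whose extracellular part has cadherin-like repeats, was higher in the IPN by 3.53 ± 0.13.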

How the data were processed

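Per the submitters' processing notes, the aligner was STAR 2.3.0e on build mm10, HTSeq did the counting, and the authors used DESeq2; the deposited files hold raw counts per gene symbol for each library. Per the labels' protocols, cDNA was made with Ovation RNA-Seq V2 and libraries with TruSeq DNA Nano, which does not mark strand, so reads of a gene and of a transcript antisense to it cannot be told apart. The tables come in 3 gene lists of 37328, 32532 and 24454 symbols; the 22682 shared symbols were used, and rows that name no gene were left out of library sizes.

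Counts were tested with edgeR 4.0.16 (R 4.3.3; TMM, filterByExpr with a minimum count of 10, robust quasi-likelihood test), adjusted over all genes by Benjamini-Hochberg at 0.05, with limma 3.58.1 and DESeq2 1.42.0 for alternatives. The fits were tested on simulated data, where the fit of all 13 Amigo1 and Epyc IPs found few of the changed genes with edgeR and gave many false calls with DESeq2. Differences are log2 values ± SE; counting intervals are exact at 95% and, like floors of 3 counts, cover counting error only. Replicates are separate pools of mice except where stated, and p-values measure the spread between pools. ChAT IPs were tested against inputs and against nicotine IPs within 1 gene list.

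Per the labels' protocols, IP and input RNA were taken from homogenates of the same dissections; the labels match them by replicate number and number of mice only. Deviations of same-numbered libraries from the group means correlated at r of 0.288 to 0.406 (Chrna5) and 0.102 to 0.136 (Amigo1), and these were taken as pairs. A fit with the pair as a block was an alternative.

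Passing genes were named by size of the log2 difference, at most 10 in each direction, the 3 smallest p-values where fewer than 3 passed, and at most 3 per partner list. The genes and lists were chosen with earlier results of these data known. Quality weights, line-only fits and paired pools without the block were chosen after seeing the data. Promoter windows and starts are from RefSeq (GRCm38.p6) and GENCODE.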

Additional observations from a re-analysis of the deposited data

Results flagged for a closer look

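Of 147 sets of 4 to 9 library values examined, 14 held 1 library far from the others by Dixon's criterion, and chance alone flags about 5% of sets. Of the 14, 9 were in ChAT IP baseline 1, within the 9 ChAT IPs without nicotine. There Cdh2 was at 70.2 CPM against 22.1 to 40.8 CPM in the other 8, Cdh4 at 13.3 against 3.18 to 7.95, Cdh6 at 29.7 against 1.83 to 15.8, Cdh12 at 40.4 against 5.65 to 18.4, and Pcdh10 at 103 against 18.8 to 46.0 CPM. Pcdh11x was at 20.8 CPM against 4.92 to 10.7, Pcdh17 at 92.0 against 21.9 to 52.6, Pcdh18 at 13 against 2.17 to 5.98, and Pcdh19 at 62.6 against 8.65 to 34.6 CPM. The same library had an astrocyte marker sum of 1007 CPM against 148 to 439 CPM, and the part of glial RNA in these values was not tested. These 9 IPs mix treatments and gene lists.

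The other 5 were single values. Cdh18 was at 32.8 CPM in ChAT input saccharin water with saline injection 1, against 25.2 to 25.9 CPM in the other inputs. Pcdh20 was at 24.7 CPM in ChAT IP baseline 2, against 13.7 to 17.8 CPM. Cdh2 was at 147 CPM in Epyc saline-pump input 2, against 71.1 to 81.8 CPM, and Pcdh11x at 39.2 CPM in Epyc input baseline 4, against 58.5 to 62.5 CPM. Cdh8 was at 127 CPM in Epyc saline-pump IP 1, against 156 to 162 CPM.

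Effects that differed between lines by a test of the difference were 4. The IP-to-input difference, Amigo1 minus Epyc, was 2.33 for Cdh6, -0.93 for Cdh8 and -1.22 for Pcdh10 on the log2 scale. The nicotine difference, Amigo1 minus Epyc, was -8.56 for Cdh24, a fitted value that rests on 1 count in the 3 Amigo1 nicotine IPs and is no bound.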

How the results depend on the processing

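For the 4 comparisons of IP with input, for Chrna5 against ChAT IPs and for IPN against MHb inputs, each count of passing members stayed within 1.5 times the reported one under each alternative run. With only the IPs and inputs that share a number, 15 (Chrna5), 22 (ChAT), 10 (Amigo1) and 14 (Epyc) members passed with a block for the pair, and 11, 18, 9 and 14 without it. In the ChAT line (2 pairs) Pcdh1 turned from 0.06 to -0.49 with and without the block, and passed with it (adjusted p = 0.0372), as did Cdh20 (-0.86, 0.0293); Cdh7, Cdh9, Cdh24 and Pcdh8 missed the threshold in both. In the Epyc line the block changed no call of those libraries. Same-numbered libraries correlated at r of 0.0381 to 0.0478 in Epyc, where baseline 2 correlated more with another number (0.0617). Epyc libraries are therefore said only to share a number. In ChAT r was 0.471 for the same number and -0.471 for the other. With 2 pools the second value is the first with its sign turned, so pairing was left undecided there. Leaving out 1 library gave 9 to 11 for Chrna5, 23 to 25 for ChAT, 9 to 15 for Amigo1, 10 to 14 for Epyc, 19 to 21 for Chrna5 against ChAT and 15 to 20 for the inputs.

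Amigo1 against Epyc IPs depended on the libraries in the fit: 0 members passed with all 13 IPs, 5 with the 8 IPs without nicotine, 8 with the Chrna5 IPs added, 3 as a difference of IP-to-input differences, 8 with quality weights, and 0 to 1 leaving out 1 IP (1, Pcdh10, without Amigo1 nicotine IP 3). For the nicotine IPs of these lines the 4 became 7 (DESeq2), 1 (quality weights) and 1 to 13 leaving out 1 IP. For nicotine in Amigo1 the 5 became 8 (DESeq2), 1 (baseline controls), 0 (Amigo1 IPs alone), 0 (quality weights) and 2 to 14, and for the nicotine difference the 1 became 3 (DESeq2) and 1 to 8; the highest counts came without Amigo1 nicotine IP 3. For ChAT nicotine the 0 became 0 to 10, the 10 without the injected nicotine IP.

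Directions also turned with the IP left out. Between nicotine IPs, Cdh6 ran from -4.60 to 4.01, Pcdh11x from -2.22 to 1.67 and Pcdh19 from -2.53 to 0.77. For nicotine in Amigo1, Cdh12 ran from -4.50 to 1.75, Cdh13 from -1.99 to 0.91, Pcdh11x from -1.81 to 2.06 and Pcdh19 from -2.32 to 0.98. For the nicotine difference, Cdh12 ran from -4.35 to 1.90, Pcdh11x from -2.01 to 1.86 and Pcdh19 from -2.35 to 0.94. None of these passed as reported. The cause was not tested. Between ChAT IPs of 2 gene lists 1 of 31 members differed, Cdh7 (-1.67 ± 0.38, adjusted p = 0.0321), against 876 of 15010 genes. The median absolute log2 difference between the lists was 0.53 for the members and 0.38 for all genes.

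Libraries of 7908401 reads or more leave members under about 1 CPM with few counts, and a difference in Cdh1, Cdh16 or Pcdh12, tested in no comparison, was not detectable at this depth.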
